A study of Mus musculus with 72 samples.

Results

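TFE3 occupancy of oligodendrocyte chromatin was measured by chromatin immunoprecipitation and sequencing (ChIP-seq) in wild-type mice (WT) and in mice lacking Sgsh (SgshKO), both on the C57BL/6 strain. The data comprised 8 of the 72 samples of the series, namely 2 TFE3 ChIP samples and 2 input samples of each genotype. They were chosen as the TFE3 columns of the oligodendrocyte factor table, each set against the input column of its own genotype. In that table the samples of a group are merged into 1 pool, so every TFE3 value is that of a pool, has no replicate error and allows no test between the genotypes or between the factors. Nuclei came from brain, named as forebrain in the study's design, and were sorted as OLIG2+ and DAPI+ singlets without PU.1 or NEUN. The age and sex of the animals behind the factor samples are not given in the labels. TFE3 was precipitated with a mix of 3 antibodies after crosslinking with disuccinimidyl glutarate and formaldehyde, and the input is lysate that was not precipitated. MITF and TFEB, measured in the same nuclei with their own antibodies and 2 samples per genotype, share these inputs.

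TFE3 belongs with TFEB, MITF and TFEC to the MiT/TFE family of basic helix-loop-helix leucine zipper transcription factors. These proteins bind as dimers to E-box sequences with the core CACGTG, and many genes of lysosome formation and autophagy carry such a sequence near their start. When nutrients are plentiful the factors are held in the cytoplasm through phosphorylation by mTORC1 on the lysosomal surface, and they move into the nucleus when lysosomes are stressed or mTORC1 is inactive. Sgsh encodes a lysosomal sulfatase of heparan sulfate breakdown, and its loss causes the storage disease mucopolysaccharidosis type IIIA. Oligodendrocytes form the myelin of the brain, and OLIG2 marks both mature cells and their precursors.

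The following stretches of promoter sequence show the palindromic E-box in 6 genes of lysosomal or nutrient-sensing function. They are shown because the element stands at promoters of very different TFE3 enrichment, from among the highest to near the middle of all promoters. Each stretch runs 5′ to 3′ on the strand of its gene, comes from RefSeq's promoter table on build GRCm38.p6, and has the core CACGTG in capitals.
Naglu, chr11:101070004-101070043, plus strand: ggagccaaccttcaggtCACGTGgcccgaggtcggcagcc
Glb1, chr9:114401013-114401052, plus strand: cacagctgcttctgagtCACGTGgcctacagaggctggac
Fnip1, chr11:54438087-54438126, plus strand: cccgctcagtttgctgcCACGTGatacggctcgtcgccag
Sgsh, chr11:119355517-119355556, minus strand: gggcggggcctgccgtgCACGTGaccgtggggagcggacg
Mcoln1, chr8:3500431-3500470, plus strand: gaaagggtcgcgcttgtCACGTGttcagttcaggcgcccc
Atp6v0b, chr4:117887343-117887382, minus strand: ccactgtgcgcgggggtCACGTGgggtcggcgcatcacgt
All 6 stretches lie upstream of the start site. The base before the core is T in Naglu, Glb1, Mcoln1 and Atp6v0b, which gives the extended form TCACGTG, and in Fnip1 and Sgsh an A after the core gives the same form on the other strand.

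Signal was counted in 82577 windows of 200 bp centred on sites of open chromatin in WT and SgshKO oligodendrocyte nuclei, so sites outside open chromatin are not covered. Values are tags per 10M tags of the pool. The WT TFE3 pool held 45.7M tags, of which 12.9% lay in the windows, and the SgshKO TFE3 pool held 24.6M, of which 24.8% lay in the windows. The share of tags in windows was 3.07% in the WT input and 3.22% in the SgshKO input. The inputs differed in evenness. The WT input, with 52.4M tags, left 16.03% of windows empty, whereas the SgshKO input, with 20.8M tags, left 48.9% empty. The SgshKO input averaged 8.09 tags per window with a median of 1, and evenly scattered tags at that depth would leave 0.0305% of windows empty. TFE3 enrichment is the log2 of (ChIP + 1)/(input + 1) within a genotype, and a window is called bound where the mean over both genotypes is at least 1, which is 2-fold. Over a window with an empty input, the size of the enrichment is set by the added 1, so raw values are printed beside it.

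Markers of the cells were read in the open windows and in libraries of a histone mark, not in the TFE3 samples. All 25 oligodendrocyte marker genes, among them Mbp, Mog and Opalin, had an open window within 1 kb of their start, with a median signal of 160.0 tags per 10M for histone H3 acetylated at lysine 27 (H3K27ac, a mark of active promoters and enhancers) in WT at 4 months. Of 10 precursor markers 9 had one, with a median of 19.7. Of 16 microglial markers 2 had one, with a median of 44.6, and 8 had no window assigned to them at all. Of 13 neuronal markers 6 had one, with a median of 3.27, and of 10 astrocyte markers 4 had one, with a median of 45.3. Over all 11968 genes with such a window the median was 21.3. The precursor median thus lay near that of all genes, and the microglial and astrocyte medians lay above it. These values do not check the TFE3 samples themselves.

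TFE3 was bound at 48449 windows, 58.7% of all windows, and reached 4-fold enrichment at 31433, or 38.1%. The median enrichment over all windows was 1.40 on the log2 scale, being 1.12 in WT and 1.94 in SgshKO, and the highest was 9.14. In WT alone 43511 windows were bound, in SgshKO alone 50962, in each of the genotypes separately 32537, and in at least 1 genotype 61936. The SgshKO input held no tag at 28415 of the 48449 bound windows, or 58.6%, and the WT input none at 9146, or 18.9%. The windows of Mex3b, Gm13293 and Pak7 lay just inside the threshold with enrichments of 1.00 each, and those of Spock1, Nudt14 and Apc lay just outside it, also at 1.00 after rounding.

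Bound windows sat at promoters somewhat more often than open windows in general. Within 1 kb of a start site lay 28.3% of the bound windows against 24.4% of all windows. The bound share was highest directly at start sites, where 80.8% of the windows less than 100 bp away were bound. It was lowest between 1 and 10 kb, at 49.7%, and rose again to 66.5% beyond 100 kb. By the annotation of the deposited table, 73.6% of windows at promoters were bound, 65.0% in 5′ UTRs, 58.8% between genes, 55.0% in introns and 44.9% in exons. Among the autosomes the bound share ran from 53.8% on chromosome 17 to 65.3% on chromosome 13, and it was 67.6% on the X. On the Y 3 of 17 windows were bound (17.6%).

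The strongest windows were mainly distal. Among windows with an enrichment between 2 and 3, 31.6% lay within 1 kb of a start site, and among the 904 windows at 6 or more, which is 64-fold, 13.3% did. Of those 904 windows, 440 were annotated to introns, 316 to intergenic sequence and 106 to promoters. Ranked by raw TFE3 signal instead, which does not use the inputs, the 1000 highest windows held 14.4% at promoters, so the promoter share was as low without the inputs. The 10000 highest windows by raw signal held 28.6% at promoters, above the 24.4% of all windows.

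H3K27ac, measured in other libraries, rose with TFE3 enrichment above 0, but the relation over all windows was weak and not particular to TFE3. The Spearman correlation with WT H3K27ac at 4 months was 0.178 for TFE3, 0.197 for MITF and 0.192 for TFEB. In windows with TFE3 below 0 the median H3K27ac signal was 16.4 and 15.8 tags per 10M in the WT libraries at 4 months and 18.8 and 18.4 at 8 months. In windows with TFE3 at 6 or more it was 54.9 and 49.9 at 4 months and 81.0 and 83.9 at 8 months. In SgshKO the same medians at 6 or more were 54.0 and 33.1 at 4 months and 79.1 and 85.9 at 8 months. The lowest of these, the second SgshKO library at 4 months, had 29.2% of its tags in windows, against 43.2% to 47.3% in the other 4-month libraries. In all 8 libraries the medians rose from each group of windows to the next above an enrichment of 0, and those at 0 to 1 were lower than those below 0.

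**Figure D1:**
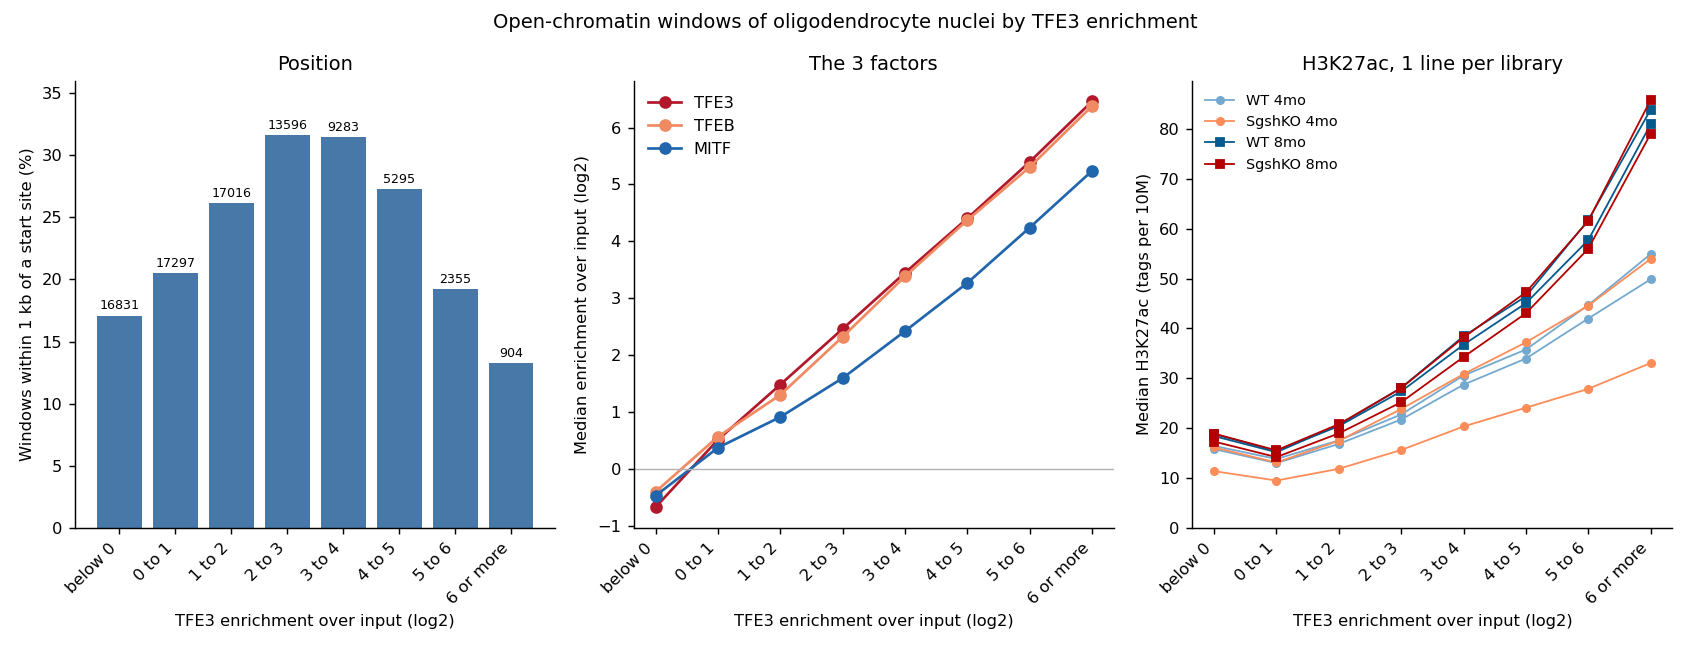
Open-chromatin windows of oligodendrocyte nuclei grouped by TFE3 enrichment over input (log2, mean of genotypes). Left, share of windows within 1 kb of a start site, with the number of windows above each bar; middle, median enrichment of TFE3, TFEB and MITF; right, median H3K27ac signal with 1 line per library. Promoter share peaks at 31.6% between 2 and 3 and is 13.3% at 6 or more. The other factors rise to the last group, and H3K27ac does so from the group at 0 to 1.

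The 12 windows of largest enrichment with at least 100 TFE3 tags included 11 outside promoters. The first lay in intron 1 of 8 of Hivep3 (chr4:119937843-119938043), 123 kb from the start site. Hivep3 encodes a zinc finger protein that binds DNA. TFE3 signal there was 745.6 tags per 10M in WT with 0 in the input, and 1850 in SgshKO with 3.37 in the input, an enrichment of 9.14. Against a floor of 3 input tags the WT signal was at least 1301-fold above the input. The same window carried 346.98 (WT) and 1110 (SgshKO) tags per 10M of MITF and 801.6 and 1698 of TFEB, so all 3 factors were high there.

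The other windows of that group lay beside genes of varied function. The next, between genes 288 kb from the start of Rps24, had 259.4 tags per 10M in WT and 726.3 in SgshKO with no input tag in either genotype (enrichment 8.77). A window 20.7 kb upstream of Ass1, the urea cycle enzyme argininosuccinate synthase, had 225.9 and 796.6 over empty inputs (8.73). A window 116 kb upstream of Nfia, a glial transcription factor, had 255.9 and 782.0 with inputs of 0.57 and 0 (8.48). The only promoter in the group was that of the long noncoding RNA Gm33727 (chr17:25518268-25518468), with 428.2 over 2.87 in WT and 1173 over 0 in SgshKO (8.49). A window in intron 2 of 3 of Tppp, a tubulin-binding protein abundant in myelinating oligodendrocytes, had 373.5 over 2.87 in WT and 893.8 over 0 in SgshKO (8.20). The remaining 6 windows, nearest to Tnfsf11, Mir7117, Slc24a2, Zfp532, Rgs14 and Elmo1, had enrichments from 8.20 to 8.47. All 12 windows were bound by MITF and TFEB as well, with MITF between 6.05 and 8.22 and TFEB between 7.91 and 9.13. One of the 12, near Rps24, was also open in microglia.

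Promoters of highest enrichment were looked up after their values were seen. Those described are examples and not the highest in order, so no shared function can be read from them. Between Gga3 and Ercc4, for instance, lay Mir7662 (7.88), E030011O05Rik (7.81), Wdtc1 (7.55), Rhoj (7.38) and Tmem86a (7.35). Gga3, an adaptor for sorting from the trans-Golgi network towards endosomes and lysosomes, had 229.0 tags per 10M over 1.91 in WT and 727.1 over 0 in SgshKO (7.91). Tgoln2, a trans-Golgi membrane protein, had 93.3 over 0.96 and 372.3 over 0 (7.07). Amd1, an enzyme of polyamine synthesis, had 152.6 over 1.91 and 439.8 over 0 (7.25). Ercc4, a DNA repair nuclease, had 98.7 and 243.1 over empty inputs (7.29). In each of these promoters both pools stood far above their inputs.

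Genes of the lysosome were then read against all promoters. A promoter window was the window nearest to a gene's start within 1 kb, and 11968 genes had one, of which 9441 (78.9%) were bound, 6869 (57.4%) at 4-fold or more, with a median enrichment of 2.30. The lists were described by counts and medians only. Of 40 lysosomal hydrolases and their cofactors 34 had a promoter window, 29 were bound and 22 reached 4-fold, with a median of 2.66. Of 28 lysosomal membrane genes with a promoter window 27 were bound and 23 reached 4-fold, with a median of 2.86. Of 19 genes of the V-ATPase, the proton pump that acidifies lysosomes, 18 were bound and 15 reached 4-fold, with a median of 3.37. Of 34 autophagy genes 32 were bound and 23 reached 4-fold, with a median of 2.68. Of 27 genes of the mTORC1, Rag and folliculin branch 24 were bound and 20 reached 4-fold, with a median of 2.80.

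These medians depended on the genotype and on the empty inputs. In WT alone the hydrolase median was 1.501, below the 1.71 of all promoters, and in SgshKO it was 3.74 against 2.96. With empty input windows set to 3 tags it was 2.19 against 1.96. By raw signal the hydrolase promoters had medians of 14.8 tags per 10M in WT and 31.1 in SgshKO, against 11.6 and 21.9 for all promoters. The V-ATPase median was 1.96 in WT and 3.89 in SgshKO, and 2.76 with the floor. Lysosomal membrane genes stood higher than all promoters in both genotypes, with 2.65 in WT and 3.31 in SgshKO.

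Among lysosomal membrane genes, Cd63, a tetraspanin of late endosomes and lysosomes, had the highest promoter enrichment. Its TFE3 signal was 100.5 tags per 10M over 1.72 in WT and 257.3 over 0 in SgshKO (6.62), rank 27 of the 11968 promoters. Scarb2, the lysosomal membrane protein LIMP-2, had 43.8 over 1.34 and 64.6 over 0 (5.15). Ostm1, a subunit of the lysosomal chloride-proton exchanger, had 39.0 over 2.48 and 62.6 over 0 (4.76). In these 3 genes TFE3 stood well above input in each genotype. Lamp1, a major protein of the lysosomal membrane, lay lower, with 33.7 over 13.9 in WT and 41.9 over 11.6 in SgshKO (1.49). Mcoln1, the lysosomal calcium channel TRPML1 whose E-box is printed above, had 11.6 over 0 and 34.95 over 15.4 (2.39). Slc36a1, an amino acid transporter, was the 1 gene of the list that was not bound, with 3.06 over 10.1 in WT and 30.9 over 5.29 in SgshKO (0.44).

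Among hydrolases the highest was Smpd1, acid sphingomyelinase, with 49.3 tags per 10M over 0.38 in WT and 64.2 over 2.41 in SgshKO (4.72). Neu1, a sialidase, had 40.5 over 8.21 and 87.0 over 0 (4.32). Glb1, the beta-galactosidase with the E-box printed above, had 9.41 over 0.19 and 33.7 over 0 (4.12). Psap, the precursor of the saposins that help break down sphingolipids, had 34.4 over 14.3 and 93.9 over 0 (3.89). Galc, which degrades the myelin lipid galactosylceramide, had 5.69 over 0.19 and 13.4 over 0 (3.17). Among the 5 hydrolase promoters that were not bound were those of Ppt1, Hexa, Ctsz and Ctsl. Of these, Ctsl, the protease cathepsin L, had 0.66 over 0.19 in WT and 0.81 over 16.8 in SgshKO (-1.41), so neither pool showed more than a few TFE3 tags.

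For the breakdown of heparan sulfate, the pathway that Sgsh belongs to, 9 of 10 genes had a promoter window. Of these 8 were bound (88.9%) and 4 reached 4-fold (44.4%), with a median of 1.84. Over all promoters 78.9% were bound and 57.4% reached 4-fold, with a median of 2.30. Naglu, the glucosaminidase of the same pathway, had 115.8 tags per 10M over 2.10 in WT and 208.9 over 0 in SgshKO (6.47), rank 34 among promoters. Hgsnat, the acetyltransferase, had 13.3 over 1.15 and 49.6 over 0 (4.20). The other 7 lay between 0.68 and 2.67. Naglu was thus the 1 gene of the pathway among the highest promoters.

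Sgsh itself had 3 windows. At its promoter (chr11:119355420-119355620), TFE3 signal was 0.88 tags per 10M in WT, which is 4 tags, and 24.8 in SgshKO, which is 61 tags, over inputs of 0.19 and 0. The TMM-scaled log2 ratio of SgshKO to WT was 3.06, and the exact interval of the ratio from counting error alone ran from 5.72-fold to 58.3-fold. MITF there was 17.9 in WT and 13.2 in SgshKO, and TFEB was 21.2 and 20.6, so the scaled log2 ratios were -1.67 and -0.56. At this promoter the low value was therefore that of TFE3 in WT. The window 510 bp into the gene, annotated to the promoter of another transcript, had 1.75 in WT and 2.85 in SgshKO over inputs of 4.20 and 3.85. The window nearest to Sgsh in an intron of a neighbouring gene had 3.72 and 0 over 4.20 and 3.37. ChIP signal does not check the deletion.

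In the pump and nutrient-sensing groups the highest promoters were clear of input in both pools. Atp6v1g1, a V1 subunit of the V-ATPase, had 67.4 tags per 10M over 4.01 in WT and 142.3 over 0 in SgshKO (5.47). Lamtor2, a subunit of the Ragulator scaffold on lysosomes, had 79.5 over 6.69 and 185.3 over 0 (5.46). Rragc, a Rag GTPase, had 31.3 and 34.1 over empty inputs (5.07). Its partner gene Rraga was not bound, with 1.75 over 3.06 and 17.1 over 9.63 (0.10). Flcn, the folliculin gene, had 33.3 over 6.88 and 36.6 over 14.4 (1.70), although its H3K27ac signal of 401.2 was the highest of its list. Castor1, an arginine sensor, had 1.75 over 8.40 and 0 over 0 (-0.89).

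Of the autophagy genes, Rab7, a GTPase of late endosomes, was highest with 91.9 tags per 10M over 2.87 in WT and 292.6 over 7.70 in SgshKO (4.83). Map1lc3b, the autophagosome protein LC3B, had a large raw signal of 128.1 and 234.1 but also inputs of 10.3 and 24.6 (3.36). Sqstm1, the autophagy receptor p62, had 21.02 over 10.9 and 89.4 over 5.29 (2.37). Atg7 and Gabarapl2 were the 2 that were not bound, at 0.63 and 0.46.

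**Figure D2:**
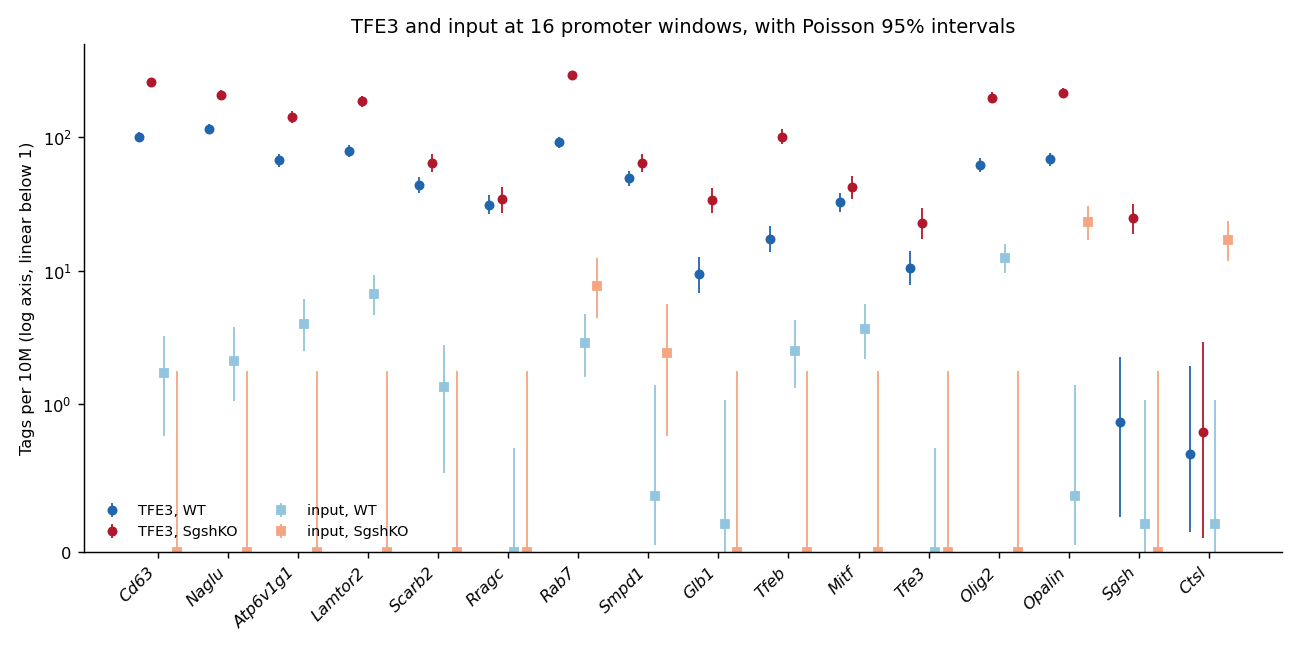
TFE3 and input signal (tags per 10M, log axis that is linear below 1) at 16 promoter windows in WT and SgshKO pools, with exact Poisson 95% intervals of the counts. Cd63, Naglu and Rab7 lie far above input in both pools, Sgsh has 0.88 in WT and 24.8 in SgshKO, and Ctsl has under 1 tag per 10M of TFE3 in each pool.

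The genes of the family itself carried TFE3. The promoter of Tfeb had 17.3 tags per 10M over 2.48 in WT and 101.2 over 0 in SgshKO (4.53). That of Mitf had 32.6 over 3.63 and 42.3 over 0 (4.15). That of Tfe3 had 10.5 and 22.8 over empty inputs (4.05). Tfec had no promoter window. The strongest windows assigned to Mitf and Tfeb, picked after their values were seen, lay in their first introns, with enrichments of 5.42 and 5.24. Of the other clock and E-box factors all 22 promoters were bound, with a median of 2.42, beside 78.9% and 2.30 over all promoters. Max, the common partner of MYC proteins, had 155.4 over 2.48 and 145.1 over 2.41 (5.46), and Cry2, a repressor of the clock, had 107.3 over 1.15 and 247.9 over 12.5 (4.93).

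Myelin genes carried TFE3 at nearly all of their promoters. Of 25 myelin and oligodendrocyte genes 24 were bound (96%) and 23 reached 4-fold (92%), beside 78.9% and 57.4% of all promoters. Over the mean of genotypes their median was 3.59, or 3.37 with the input floor, against 2.30 and 1.96 for all promoters. The place of the myelin genes among the lists depended on the genotype. In WT their median was 2.58, beside 2.65 for lysosomal membrane genes and 3.08 for precursor genes. In SgshKO it was 3.82, beside 3.89 for the V-ATPase. Their promoters also had the highest median H3K27ac of the lists, and the part of this in the TFE3 values was not tested. Olig2, the transcription factor of the lineage, had 62.2 tags per 10M over 12.4 in WT and 198.3 over 0 in SgshKO (4.94). Opalin, a myelin membrane protein, had 68.7 over 0.38 and 216.2 over 23.1 (4.42). Sox10, which drives myelin genes, had 39.2 over 1.91 and 151.2 over 4.81 (4.25). The promoter of Mbp, myelin basic protein, was lower, with 20.4 over 3.82 and 5.28 over 0 (2.40). Anln, not bound, had 5.03 over 4.39 and 25.2 over 6.74 (0.96).

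Away from their promoters, these genes had stronger windows. Over the 25 genes, the median of each gene's strongest assigned window was 5.29, against 3.23 over all 16193 genes. It was 5.27 for precursor genes and 5.34 for astrocyte markers, so the value was not particular to myelin genes. The myelin genes also had more windows, with a median of 24 per gene against 2 over all genes. Precursor genes had a median of 5.5 windows and astrocyte markers 2.5. A maximum over more windows tends to be higher, and the part of this was not tested. A window 10.9 kb downstream of the start of Olig1, picked after its value was seen, had 287.9 tags per 10M over 3.44 in WT and 817.8 over 0.48 in SgshKO (7.57). At the 3′ end of a transcript by its annotation, 5.96 kb from the start of Cnp, TFE3 was 188.5 over 8.40 and 682.0 over 0 (6.87). In intron 1 of Opalin it was 148.2 over 3.63 and 395.5 over 0 (6.82). In intron 2 of Mbp, 33.3 kb from the start, it was 136.8 over 5.92 and 269.9 over 0 (6.20). The major myelin genes Cnp and Mbp thus had their highest TFE3 outside the promoter window.

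Precursor genes and cholesterol synthesis genes were also read beside all promoters, of which 78.9% were bound, with a median of 2.30. All 9 precursor promoters were bound, with a median of 2.94, led by Bcan, the brevican of the brain matrix, with 15.8 and 50.0 tags per 10M over empty inputs (4.87). Of 18 promoters of cholesterol synthesis and its control, a pathway that myelin formation draws on, 15 were bound (83.3%), with a median of 2.83. Sc5d, a desaturase of the pathway, had 46.2 over 9.36 and 144.3 over 0 (4.69). Of 8 promoters of mitochondrial and fatty acid metabolism 6 were bound, with a median of 2.29, close to that of all promoters. For other cell types, 4 of 6 neuronal, 3 of 4 astrocyte and 1 of 2 microglial marker promoters with a window were bound.

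MITF and TFEB were compared with TFE3 over the same windows and inputs. TFEB was bound at 47485 windows (57.5%) and MITF at 41315 (50.0%). Of the 48449 windows bound by TFE3, 31839 (65.7%) were bound by all 3 factors, 7883 (16.3%) also by TFEB only, 3353 (6.92%) also by MITF only, and 5374 (11.1%) by TFE3 alone. In the other direction TFE3 was bound at 83.7% of the TFEB windows and at 85.2% of the MITF windows. Over all windows the Spearman correlation of enrichment was 0.827 between TFE3 and TFEB and 0.775 between TFE3 and MITF (82577 windows, as a description). Part of this is shared by construction, since the factors of a genotype have the same input and all windows are open sites.

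TFE3 ranked windows more like TFEB than like MITF in WT, and slightly more like MITF than like TFEB in SgshKO. Of the 1000 windows of highest raw TFE3 signal in WT, 786 were among the 1000 highest of WT TFEB and 447 among those of WT MITF. In SgshKO these numbers were 772 for TFEB and 803 for MITF. The WT MITF pool had 6.35% of its tags in windows, the lowest of the ChIP pools, against 18.5% for SgshKO MITF, 14.1% for WT TFEB and 23.8% for SgshKO TFEB. The part of this share in the rank differences was not tested.

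The sizes of TFE3 and TFEB were close. Over the windows bound by TFE3 the median enrichment in WT was 2.06 for TFE3, 2.14 for TFEB and 0.84 for MITF, and in SgshKO 3.30, 2.97 and 2.86. TFE3 exceeded TFEB at 57.3% of them and MITF at 83.3%. These windows were chosen on TFE3, which favours TFE3 in both shares. TFE3 exceeded TFEB at 48.6% of the bound windows at promoters and at 60.7% of the distal ones. Over the promoter windows of all 11968 genes, which were not chosen on TFE3, TFEB exceeded TFE3 at 6971. The same held at 24 of 34 hydrolase, 20 of 28 lysosomal membrane, 15 of 19 V-ATPase and 19 of 22 clock and E-box factor promoters.

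**Figure D3:**
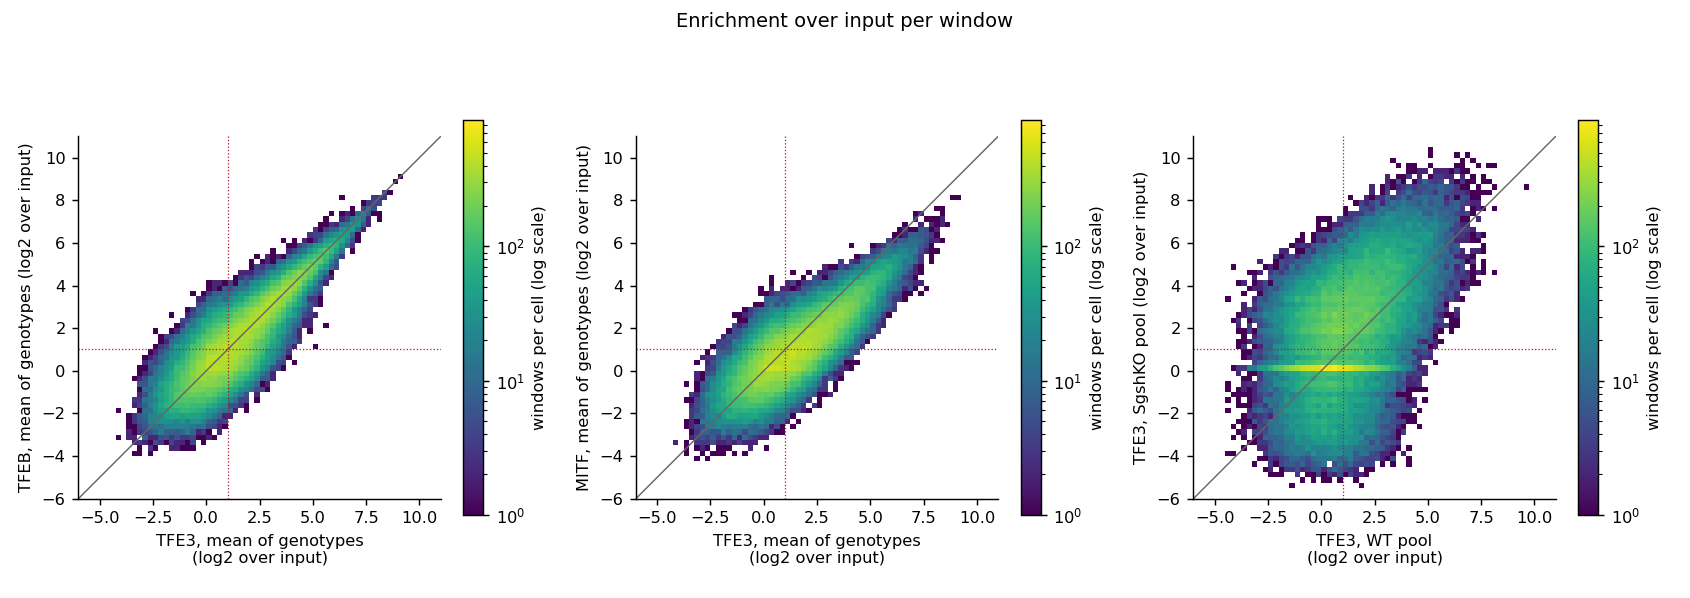
Enrichment over input per window (log2), as counts of windows per cell on a log colour scale. Left, TFEB against TFE3; middle, MITF against TFE3; right, the SgshKO TFE3 pool against the WT TFE3 pool; grey lines mark equality and dotted lines the bound threshold. TFE3 and TFEB follow the line closely (Spearman 0.827), MITF lies below it at high TFE3, and the genotypes scatter widely (0.450), with windows that have no tag in either SgshKO pool at 0.

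The windows bound by TFE3 alone were weak. Their median enrichment was 1.45 with a median of 50 TFE3 tags over both pools, against 2.68 and 119 tags where MITF or TFEB was bound too. They reached 4-fold at 934 of 5374 (17.4%), lay at promoters in 19.4% against 29.4%, and had a median H3K27ac signal of 11.5 against 26.1 tags per 10M.

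The windows in which TFE3 most exceeded the mean of MITF and TFEB were in intron 1 of Lsamp, intron 1 of Ttc33, at the promoters of Tcea2 and St6galnac6 and near Mir8103, by 3.35 to 3.53 log2 units. At Lsamp, a neuronal adhesion molecule, TFE3 was 42.5 tags per 10M over 1.91 in WT and 27.2 over 3.37 in SgshKO (3.30). Over the same inputs MITF was 0 in WT and 5.43 in SgshKO, a mean enrichment of -0.49. TFEB was 12.3 in WT, above its input, and 0 in SgshKO, a mean enrichment of 0.03. At Ttc33, 244 bp from the start, TFE3 was 13.3 and 17.1 over empty inputs (4.01), against mean enrichments of 0.62 for MITF and 0.41 for TFEB. In both windows TFE3 stood above input in each genotype. The windows in which it lay furthest below were at Wars2, Galnt2, Dok4, Dnajc18 and Arhgap31, by 3.38 to 3.62. At the promoter of Wars2, the mitochondrial tryptophan tRNA ligase, TFE3 was 3.50 over 1.34 in WT and 0 over 0 in SgshKO (0.47), against enrichments of 4.30 for MITF and 3.89 for TFEB.

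The genotypes were compared on the TFE3 pools alone, scaled by TMM, among 54441 windows bound in at least 1 genotype with at least 20 TFE3 tags. TFE3 was at least 2-fold higher in SgshKO at 8401 windows (15.4%) and at least 2-fold lower at 11734 (21.6%), so 41.7% of the windows past 2-fold were higher. Scaled by library total instead, 22658 were higher and 6188 lower, or 78.5% higher, and the median log2 ratio moved from -0.04 to 0.79. As the difference of the enrichments over input, 29603 were higher and 10890 lower, or 73.1%. The direction of the difference as a whole therefore depended on the scaling. The share of tags in windows moved with genotype, at 12.9% in the WT and 24.8% in the SgshKO TFE3 pool, and likewise in the MITF and TFEB pools. Its part in these counts was not tested, and without replicate columns the spread of a pool is unknown.

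Strong windows ranked alike in the genotypes when the inputs were left out. Of the 1000 windows of highest raw TFE3 signal in WT, 795 were also among the 1000 highest in SgshKO, whereas by enrichment over input 270 were. Over all windows the Spearman correlation between the genotypes was 0.718 for signal and 0.450 for enrichment.

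The largest single ratios rested on few tags in one pool. Higher in SgshKO were windows in exon 1 of Zc3hav1l (0.66 tags per 10M in WT, 73.6 in SgshKO), at the promoter of Cacng7 (0 and 28.5), in intron 1 of Pcgf3 (0 and 27.6), near Nod1 (0.22 and 34.5) and at the promoter of Eef1e1 (0.44 and 40.2). Lower were windows near Tomm6os (34.1 and 0), in intron 3 of Acbd6 (27.8 and 0) and at the promoters of Mapkapk5 (24.96 and 0), Rdh11 (23.6 and 0) and Mrpl51 (23.6 and 0). In each of these 10 windows one pool had at most 3 tags. TFEB was at least 2-fold different in the same direction at 2 of the 10 and in the opposite direction at 3, with log2 ratios from -3.86 at Zc3hav1l to -0.11 at Rdh11, all below 0. MITF was so in the same direction at 5 and in the opposite direction at 2.

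The ratios of MITF and TFEB were read in the same windows. Of the 8401 windows higher for TFE3, MITF was at least 2-fold higher at 38.0% and at least 2-fold lower at 22.7%, beside 36.97% and 21.9% of all 54441. Of the same 8401, TFEB was higher at 16.8% and lower at 28.6%, beside 14.6% and 26.3% of all. The windows higher for TFE3 were thus close to all windows in both factors. Of the 11734 windows lower for TFE3, MITF was lower at 30.5% and higher at 29.5%, and TFEB was lower at 35.7% and higher at 15.3%. H3K27ac was called changed at 4 months at 18 of 8129 tested windows among the higher, at 17 of 11233 among the lower and at 72 of 33764 among the rest. Over all tested windows it was called at 160 of 78411 (0.204%), so each of these sets lay near that share. Among listed promoters, TFE3 was 2-fold higher at 7 and lower at 2 of 34 hydrolases. It was higher at 3 and lower at 4 of 28 lysosomal membrane genes. At the 25 myelin genes it was higher at 4 and lower at 2, beside 2034 and 1668 of all 11968. These promoter counts were TMM-scaled and required binding in at least 1 genotype, but had no minimum of tags.

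The E-box core CACGTG was searched in the central 100 bases of promoter windows. RefSeq's promoter table, which runs from 250 bases before to 50 after a start, covered these bases in 7273 of the 20120 windows within 1 kb of a start (36.1%). The core, which reads the same on both strands, was found in 379 of the 7273 (5.21%, exact binomial 95% interval 4.71% to 5.75%). The share was 5.38% in bound windows and 4.41% in the others. It was 3.88% where TFE3 was below 0, 5.92% between 2 and 3 and 4.55% at 6 or more, without a steady rise. Among the 500 promoter windows of highest enrichment the core was found in 4.80% for TFE3, 6.40% for TFEB and 6.00% for MITF, with exact intervals of 3.10% to 7.06%, 4.42% to 8.92% and 4.08% to 8.44%. Ranked by raw TFE3 signal, 3.40% of the top 500 held it. The intervals of the top 500 by enrichment each include the share of all windows.

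**Figure D4:**
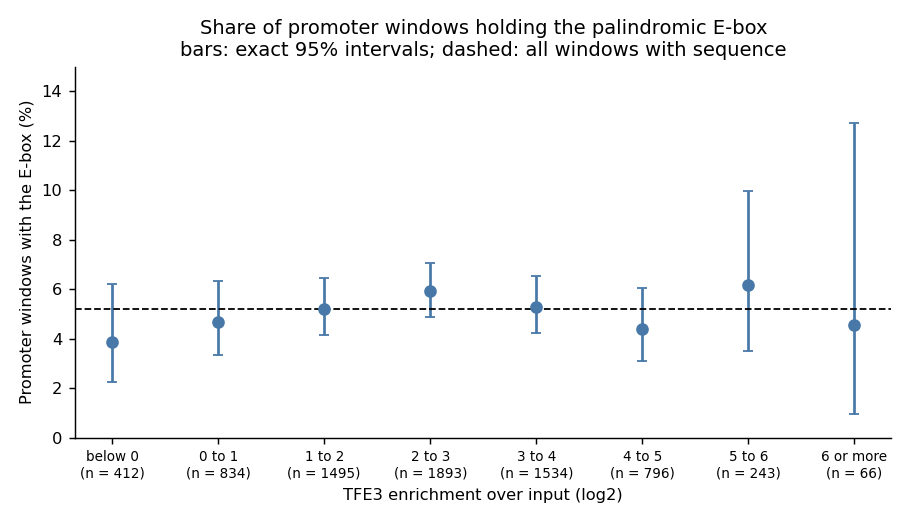
Share of promoter windows whose central bases hold the palindromic E-box core, by TFE3 enrichment over input (log2). Points are shares with exact 95% intervals, the number of windows is below each group, and the dashed line is the share in all windows with sequence (5.21%). The intervals of all 8 groups include the dashed line.

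Windows with and without the core had the same median TFE3 enrichment, 2.46 and 2.46, while those of TFEB were 2.92 and 2.63 and those of MITF 1.89 and 1.81. The extended form TCACGTG, searched on both strands and contained in part of the CACGTG matches, was found in 3.62% of the windows, and the related TCATGTG in 0.70%. Of 137 listed promoter windows with sequence 13 held the core. In Naglu, whose site is printed above, it accompanied an enrichment of 6.47, in Glb1 of 4.12 and in Fnip1, the folliculin partner, of 3.67. In Sgsh it accompanied 2.67, in Mcoln1 2.39 and in Atp6v0b, a V0 subunit of the V-ATPase, 2.19. Among the 13 were also Slc36a1 (0.44) and Anln (0.96), which were not bound. The median TFE3 enrichment was 2.39 in the 13 and 3.05 in the other listed windows with sequence. No autophagy promoter among the 19 with sequence held the core in these bases.

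TFE3 was also measured in PU.1+ nuclei of the same study, from 3 WT and 2 SgshKO samples with inputs, in a table of microglial open windows that was scaled separately. Of the 82577 oligodendrocyte windows 22141 (26.8%) had a microglial window centred within 100 bp. Of the TFE3-bound promoter windows 68.5% were open in microglia, and 82.1% of those were bound by TFE3 there. Of the bound distal windows 17.5% were open in microglia, and 59.5% of those were bound. Of the 904 strongest windows 18.6% were open. In the microglial table itself 54629 of 91770 windows (59.5%) were bound.

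At promoters open in both cell types the lysosomal lists had higher TFE3 enrichment in the microglial table. The 31 hydrolase promoters had a median of 2.41 in oligodendrocytes and 4.18 in microglia, and all 31 were bound in microglia. The 18 V-ATPase promoters had 3.31 and 4.32. For all 8783 promoters open in both the medians were 2.44 and 2.53, and 7264 of them were bound in microglia. The 9 myelin promoters open in both had 3.35 and 1.17. Naglu (6.47 and 6.19), Cd63 (6.62 and 6.36), Atp6v1g1 (5.47 and 6.24) and Rragc (5.07 and 6.30) were high in both. These are medians of pools from separately made tables, and no test of the difference was possible.

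H3K27ac at the TFE3-bound windows was compared between the genotypes in the 8 oligodendrocyte H3K27ac libraries, 2 for each genotype at 4 and 8 months, as the 1 readout with replicates. The labels do not say that replicates came from separate animals, so the p-values measure the spread between these samples. At 4 months limma called 160 of 78411 tested windows (0.204%) at a false discovery rate (FDR) below 0.05, and 99 of 47061 TFE3-bound windows (0.210%), with 52 raised and 47 reduced in SgshKO. The 8-month comparison gave 7 windows (0.00893%), 5 of them bound. The share of bound windows called was thus near the share of all windows. No promoter window of a listed gene was called at either age, beside 12 of all 11968 promoter windows at 4 months and 1 at 8 months. Calls at promoters were thus too rare for this absence to set the listed genes apart.

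The number of 4-month calls changed with each library left out, and part of the calls were X-linked. Without the first SgshKO library 14 windows were called, without the second 23, without the first WT library 2224 and without the second 851. Of the 160 calls 31 lay on the X chromosome, and of the 99 bound ones 7. The summed H3K27ac signal of the windows at Xist, the RNA of the inactive X, was 85.7 and 85.4 tags per 10M in the 4-month WT libraries and 6.37 and 5.19 in the SgshKO libraries. Genotype and the difference seen at Xist cannot be told apart at 4 months. At 8 months it was 7.37 and 81.8 in WT and 67.5 and 85.6 in SgshKO.

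Among the 92 bound windows called off the X chromosome at 4 months were 5 of TFE3 enrichment above 6, named after their values were seen. H3K27ac values of single called windows are TMM-scaled tags per 10M, whereas the H3K27ac medians and Xist sums above are not TMM-scaled. On that scale H3K27ac was higher in SgshKO in intron 1 of Cdk8, at 21.1 and 21.3 against 7.80 and 1.14 in WT (FDR 0.021, limma). It was lower near Nsun7, at 44.9 and 63.2 against 85.7 and 120.2 (0.038), and near Fgl1, at 20.4 and 30.1 against 61.6 and 59.3 (0.025). It was also lower in windows nearest to Miip and Gm9920. After TMM scaling TFE3 differed by less than 2-fold between the pools in all 5 of these windows, at log2 ratios of 0.12 to 0.83. Without that scaling the log2 ratios of the tags per 10M were 0.99 to 1.69, from 42.7 in WT and 140.2 in SgshKO at Cdk8 to 201.4 and 401.6 at Gm9920.

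At 8 months the 5 bound windows called were nearest to C4b, Cadps, Kifc3, Npsr1 and Col14a1. At the promoter of C4b, which encodes complement component 4, H3K27ac was 129.7 and 133.7 TMM-scaled tags per 10M in SgshKO against 38.2 and 45.7 in WT. The log2 difference was 1.63 ± 0.26 (SE, FDR 0.006, limma). TFE3 there was 7.66 in WT and 11.4 in SgshKO, with an enrichment of 2.56. Leaving out 1 of the 4 libraries of this age in turn left between 0 and 32 called windows in all, with 0 without the first SgshKO library, 2 without the second, 1 without the first WT library and 32 without the second. With none called by limma, 1292 windows had an unadjusted p below 0.05.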

How the data were processed

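The deposited tables hold signal as tags per 10M tags of a library or merged pool, 1 line per open-chromatin window, in the layout of HOMER's peak annotation, per the file headers. Factor windows were 200 bp and H3K27ac windows 800 bp wide. The submitters' processing notes name Bowtie2, HOMER, DESeq2 and mm10 without role or version. Whole tags were recovered from the value steps (tolerance 0.02 tags). Low values were kept, and the pools allow no test.

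Enrichment was computed as log2((ChIP + 1)/(input + 1)) from the deposited signal, and genotype ratios from the TMM-scaled pools with the same pseudocount. H3K27ac was tested with limma 3.58.1 (mean trend, two-sided, Benjamini-Hochberg FDR below 0.05) on log2(tags per 10M + 1) after filterByExpr and TMM of edgeR 4.0.16, in R 4.3.3, with all 8 libraries (21.2 to 34.2M tags) in 1 fit. In tests on simulated data for the 4-month comparison (20000 windows) 82% of 2-fold and 100% of 4-fold changes were recovered, with 15 false calls. The simulation assumed a fixed spread between replicates and changed only windows with many tags. Its rates therefore do not give the recovery in the real libraries. Alternatives used DESeq2 1.42.0, edgeR, other scalings, pseudocounts and filters. Joins and motif searches ran in Python 3.11.15. Intervals are exact (95%) and cover counting error only.

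The gene lists, thresholds and named windows were chosen with earlier results of these data known. Named by rule were the 12 windows of largest enrichment with at least 100 TFE3 tags, the 5 highest and 5 lowest genotype ratios and differences from MITF and TFEB with at least 50 tags, the 5 highest distal windows, each listed gene's window nearest its start within 1 kb, and Sgsh. Others are marked as picked after their values were seen. No genome was used, so distal windows have no sequence here. Some listed genes are not reported here by name.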

Additional observations from a re-analysis of the deposited data

How the results depend on the processing

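The number of TFE3-bound windows stayed within 1.5 times 48449 under the other pseudocount, the tag minimum, the mean of both inputs, the demand for each genotype and the input floor of 3 tags (added after the data were seen), and fell to 31433 at 4-fold. In WT alone it fell to 28823 with a pseudocount of 5 and to 26364 at 4-fold. The windows 2-fold higher in SgshKO numbered 22658 by library total, 4486 with a pseudocount of 5, 5214 with at least 50 tags and 29603 by difference of enrichments. Those 2-fold lower numbered 6188, 7545 and 6692 under the first 3 of these. The cause was not tested.

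At 4 months H3K27ac calls numbered 79 by edgeR's quasi-likelihood test and 62 by library total, and 14 to 2224 with 1 library left out. At 8 months they numbered 22 by DESeq2 and 13 by library total, and 0 to 32 with 1 library left out, where the lone sample of a group is assumed to vary like the others. With a replicate block limma called 163 and 7 windows. Same-numbered libraries did not deviate together (correlations -0.01 and -0.02), so the numbers do not pair them. No paired analysis was possible for the factors because their replicates are merged. The SgshKO input had a median of 1 tag per window at a mean of 8.09, which limits the precision of the enrichment in that genotype.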
